A study of Mus musculus with 8 samples.

Results

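The small RNA sequencing of mesenchymal stromal cells (MSCs) listed 1624 mature miRNAs, of which 1383 were known miRNAs and 241 were miRNAs that the authors' pipeline predicted from the reads and named with a serial number (novel_mir1 and so on). These 241 predicted mature miRNAs were chosen by their type (mature) and by the first letters of their name, so that no measured value entered the choice. The cells were pMSCs, from the pancreas, and iwatMSCs, from inguinal white adipose tissue (iWAT), with 4 libraries each (libraries 5 to 8 and libraries 13 to 16). Pancreas and iWAT were taken from the same male C57BL/6J mice of 8 weeks on a standard diet, cells were sorted as CD31-, CD45- and SCA1+ (neither endothelial nor haematopoietic, and of adipogenic progenitor type), and the sorted cells of 3 to 5 mice were pooled and expanded for 4 days without treatment. No group carried an engineered allele or an agent. Libraries of the 2 tissues can therefore share animals, but which mice stand behind a library is not labelled. The libraries were treated as independent samples, and p-values measure the spread between libraries, which may in part be technical.

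A miRNA is a short RNA that is cut from a hairpin-shaped precursor by the nucleases Drosha and Dicer and is then loaded into an Argonaute protein, where its seed pairs with target mRNAs and lowers their translation or stability. Small RNA reads that match no catalogued miRNA can still be assigned to one by prediction, when they map to a stretch of genome that could fold into such a hairpin. A predicted miRNA is therefore a statement about reads and a possible fold, and fragments of other RNAs can meet the same criteria. The sequence, genome position and precursor of the predicted miRNAs were not analysed here, so the members are given by name and read count, no seed or target is assigned to them, and their levels are not corrected for length. No biological role is known for any of them from the sources used here.

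The pMSCs libraries held between 7789990 and 10538022 reads of mature miRNAs, and the iwatMSCs libraries between 7956309 and 8830432. The table gives a whole read count per small RNA and library, and a value that the authors call TPM. This TPM-like value set pMSCs library 7 apart: summed over the predicted miRNAs it came to 0.657% of the reads there and to between 95.1% and 98.7% in the other 7 libraries. The read counts of library 7 showed no such gap, and the read counts were used throughout. The study excluded 1 small RNA library without naming it in the methods, and the share of reads, the presence counts and the tissue test are therefore also given without pMSCs library 7. The other descriptions cover all 8 libraries. Levels are given in CPM, which are counts scaled to a common total of mature reads with TMM factors. Markers of mesenchymal stroma were listed in every library (9 of 9) and summed to between 266008 and 294701 CPM in pMSCs and to between 182510 and 293969 CPM in iwatMSCs. The sums were carried mainly by miR-22-3p and miR-21a-5p, and in pMSCs also by miR-143-3p. In iwatMSCs, miR-143-3p was at 13467 to 17515 CPM, near miR-199a-5p at 11090 to 17759 CPM. miR-199a-3p was low in pMSCs, at 11.3 to 87.8 CPM, and varied widely in iwatMSCs, from 34.6 to 10521 CPM. Epithelial markers summed to between 235.1 and 583.8 CPM in pMSCs and between 12.3 and 20.05 CPM in iwatMSCs (5 of 5 listed), and acinar markers to between 10.7 and 56.9 CPM in pMSCs and between 0.330 and 0.738 CPM in iwatMSCs (4 of 4 listed). Islet markers summed to between 1038 and 2106 CPM in pMSCs and between 1039 and 1748 CPM in iwatMSCs. Of these, miR-375-3p was at 253.9 to 807.5 CPM in pMSCs and 3.53 to 22.5 CPM in iwatMSCs, while miR-7a-5p overlapped. Endothelial markers summed to between 218.4 and 417.5 CPM in pMSCs and between 195.7 and 353 CPM in iwatMSCs. Sums for skeletal muscle, blood, neurons and liver also overlapped, but some single markers of neurons and blood were higher in iwatMSCs without overlap. For neurons, miR-9-5p was at 7.05 to 10.5 CPM in pMSCs and 13.7 to 24.2 CPM in iwatMSCs. miR-124-3p was at 0 to 0.226 CPM in pMSCs and 0.989 to 1.72 CPM in iwatMSCs. For blood, miR-150-5p was at 9.36 to 18.4 CPM in pMSCs and 25.6 to 31.6 CPM in iwatMSCs. miR-223-3p was at 0.288 to 0.565 CPM in pMSCs and 0.773 to 4.397 CPM in iwatMSCs. The other markers of these cell types overlapped. The part of these markers in any tissue difference of the predicted miRNAs was not tested. In bulk libraries fewer cells of a type and less RNA per cell cannot be told apart.

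The predicted miRNAs carried a small part of the miRNA reads. They took 0.389%, 0.227%, 0.328% and 0.399% of the mature reads in pMSCs libraries 5, 6, 7 and 8, against 0.636%, 0.181%, 0.489% and 0.203% in iwatMSCs libraries 13, 14, 15 and 16. The mean share was 0.336% ± 0.0790 in pMSCs and 0.377% ± 0.222 in iwatMSCs (SD, n = 4 each), and the ranges of the tissues overlapped. Without library 7 the mean in pMSCs was 0.338%. Counting error was small beside this spread: the exact (Clopper-Pearson) 95% interval of the highest share, in iwatMSCs library 13, ran from 0.630% to 0.641%, and such intervals cover counting error only.

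The number of predicted miRNAs listed above 0 was 85, 127, 94 and 127 in pMSCs libraries 5 to 8, and 106, 91, 130 and 105 in iwatMSCs libraries 13 to 16. On average 108.25 ± 22.0 were listed per pMSCs library and 108 ± 16.2 per iwatMSCs library (SD, n = 4 each). The median read count of a listed predicted miRNA lay between 24 and 37 in every library.

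The lowest values of the predicted miRNAs showed how their zeros must be read. Of 865 values above 0, not 1 lay between 1 and 9 reads, 65 were exactly 10 and 321 (37.1%) lay between 10 and 19. The known miRNAs had 3402 of 7828 values above 0 (43.5%) between 1 and 9 reads in the same libraries. The same lowest value of 10 held for the piRNAs (1133 listed of 1283) and the siRNAs (4 listed of 18) predicted by the pipeline. A 0 of a predicted miRNA is therefore given as "listed at 0" and is not read as absence. How the pipeline came to write a 0 is not stated in the sources used here, and no fold change is given against a tissue listed at 0.

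Of the 241 predicted miRNAs, 208 were listed above 0 in at least 1 library and 33 were at 0 in all 8. The 208 divided into many that were rare and a core that recurred. In the grid of libraries per tissue, 53 were listed in all 8 libraries, and these held 92.9% of the 250588 reads of all predicted miRNAs. At the other end, 60 were listed in exactly 1 library, 29 in 2, 10 in 3, 19 in 4, 15 in 5, 12 in 6 and 10 in 7.

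**Figure D1:**
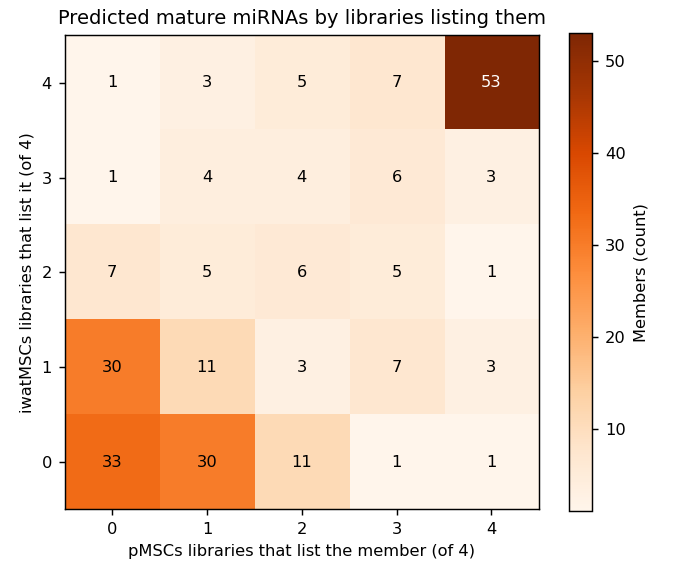
Number of predicted mature miRNAs by how many of the 4 pMSCs libraries (horizontal axis) and how many of the 4 iwatMSCs libraries (vertical axis) list them above 0, with the count printed in each cell. The counts gather in the corner of all 8 libraries (53) and in the corner of none or 1 library (33 at 0 throughout, 30 in 1 pMSCs library and 30 in 1 iwatMSCs library).

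The 60 predicted miRNAs listed in 1 library were read 10 to 68 times there, with a median of 12 reads, close to the lowest value that occurs. They were not spread evenly, since 2, 14, 4 and 10 came from pMSCs libraries 5, 6, 7 and 8, and 3, 2, 19 and 6 from iwatMSCs libraries 13, 14, 15 and 16. The 2 with the most reads were novel_mir148, with 68 reads in iwatMSCs library 15, and novel_mir157, with 51 reads in pMSCs library 8 (both picked after their values were seen).

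By tissue, 169 predicted miRNAs were listed in at least 1 pMSCs library and 165 in at least 1 iwatMSCs library, and 126 were listed in both tissues. In all 4 libraries of a tissue, 61 were listed in pMSCs and 69 in iwatMSCs. Another 43 were listed in pMSCs and at 0 in all iwatMSCs libraries, and 30 of these rested on 1 library, 11 on 2, 1 on 3 and 1 on all 4. They had 917 reads in all, and 42 of the 43 never passed 50 reads in a library. Conversely, 39 were listed in iwatMSCs and at 0 in all pMSCs libraries, 30 of them in 1 library, 7 in 2, 1 in 3 and 1 in all 4, and 36 of the 39 never passed 50 reads. Without iwatMSCs library 15, which alone lists 19 predicted miRNAs, the 39 became 20. Without pMSCs library 7, 163 were listed in pMSCs, 39 of them at 0 in all iwatMSCs libraries, and 41 were listed in iwatMSCs and at 0 in the remaining pMSCs libraries. The members listed in all 4 libraries of 1 tissue and in none of the other were novel_mir154 for pMSCs and novel_mir3 for iwatMSCs.

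Few members held most of the reads. Over the 8 libraries the most abundant, novel_mir64, had 36.9% of all reads of predicted miRNAs, the first 2 had 50.4%, the first 5 had 71.2% and the first 12 had 83.5%. A mean of at least 100 reads per library was reached by 29 members, 67 had a mean of 10 to 100 reads and 112 had a mean of 1 to 10 reads.

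novel_mir64 was read 13855, 11280, 18500 and 14014 times in pMSCs libraries 5 to 8, against 15172, 5457, 9171 and 5056 times in iwatMSCs libraries 13 to 16. Its level was 1671 ± 448.5 CPM in pMSCs and 969 ± 503 CPM in iwatMSCs (SD, n = 4 each). It led every library except iwatMSCs library 13, where novel_mir1 was ahead. The tissues overlapped, because iwatMSCs library 13 lay above 3 of the pMSCs libraries in reads, and the log2 fold change of 0.79 (pMSCs over iwatMSCs) had an adjusted p of 0.283 (edgeR, Benjamini-Hochberg).

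novel_mir1 was the second most abundant and varied far more within than between tissues. It had 3103, 634, 172 and 5974 reads in pMSCs libraries 5 to 8, against 17166, 198, 6136 and 386 reads in iwatMSCs libraries 13 to 16. novel_mir219 moved in the same libraries, with 1797, 205, 311 and 2950 reads in pMSCs, against 8935, 178, 6116 and 477 reads in iwatMSCs. Libraries 5 and 8 of pMSCs and 13 and 15 of iwatMSCs were high for both, and each tissue's other 2 libraries were low. novel_mir66 was higher in the same 4 libraries at lower level, with 547, 138, 202 and 424 reads in pMSCs, against 1008, 217, 1103 and 185 reads in iwatMSCs. So was novel_mir89, picked after its values were seen, with 246, 67, 83 and 273 reads in pMSCs, against 532, 89, 604 and 93 reads in iwatMSCs. None of the 4 passed the test between tissues. The share of reads that fell in introns was 3.11%, 2.35%, 2.49% and 3.22% in pMSCs libraries 5 to 8 and 3.18%, 2.46%, 4.97% and 3.86% in iwatMSCs libraries 13 to 16; it was highest in libraries 5 and 8 within pMSCs and in libraries 15 and 16 within iwatMSCs, and its part in the pattern was not tested.

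The other abundant members were steadier. novel_mir117 had 3494, 2280, 2311 and 3245 reads in pMSCs, against 2566, 2715, 2346 and 1408 reads in iwatMSCs. novel_mir71 had 656, 1644, 1018 and 1383 reads in pMSCs, against 1207, 1472, 827 and 790 reads in iwatMSCs. novel_mir162 had 633, 334, 825 and 425 reads in pMSCs, against 699, 563, 552 and 351 reads in iwatMSCs. All 3 overlapped widely between the tissues.

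The 3 least abundant of the first 12 were the most even. novel_mir184 was at 43.0 ± 8.02 CPM in pMSCs and 49.0 ± 8.88 CPM in iwatMSCs, novel_mir95 at 43.2 ± 4.94 CPM in pMSCs and 37.1 ± 4.88 CPM in iwatMSCs, and novel_mir45 at 34.3 ± 2.58 CPM in pMSCs and 38.6 ± 5.67 CPM in iwatMSCs (SD, n = 4 each). Their read counts lay between 212 and 524 in pMSCs libraries and between 258 and 494 in iwatMSCs libraries.

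Among the first 12, novel_mir65 was the one member whose tissues did not overlap. It had 1770, 1679, 2148 and 2180 reads in pMSCs libraries 5 to 8, against 308, 208, 1230 and 1306 reads in iwatMSCs libraries 13 to 16. The iwatMSCs libraries themselves split into a low pair (13 and 14) and a higher pair (15 and 16). Its level was 223.6 ± 37.2 CPM in pMSCs and 83.4 ± 62.2 CPM in iwatMSCs (SD, n = 4 each), and its log2 fold change of 1.42 (SE 0.54) did not pass the threshold (adjusted p = 0.201, edgeR, Benjamini-Hochberg). The exact permutation test of this member alone (two-sided) gave 0.0286, the smallest p that 4 against 4 libraries allow and the one that any member without overlap receives.

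novel_mir56 owed its place among the 12 to 1 library. It was listed at 0 in pMSCs libraries 5 to 8 and in iwatMSCs libraries 13 and 14, and had 4743 reads in iwatMSCs library 15 and 12 reads in iwatMSCs library 16. In CPM this was 503.3 in library 15 and 1.32 in library 16. Without library 15 it would be a member at 12 reads in a single library.

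**Figure D2:**
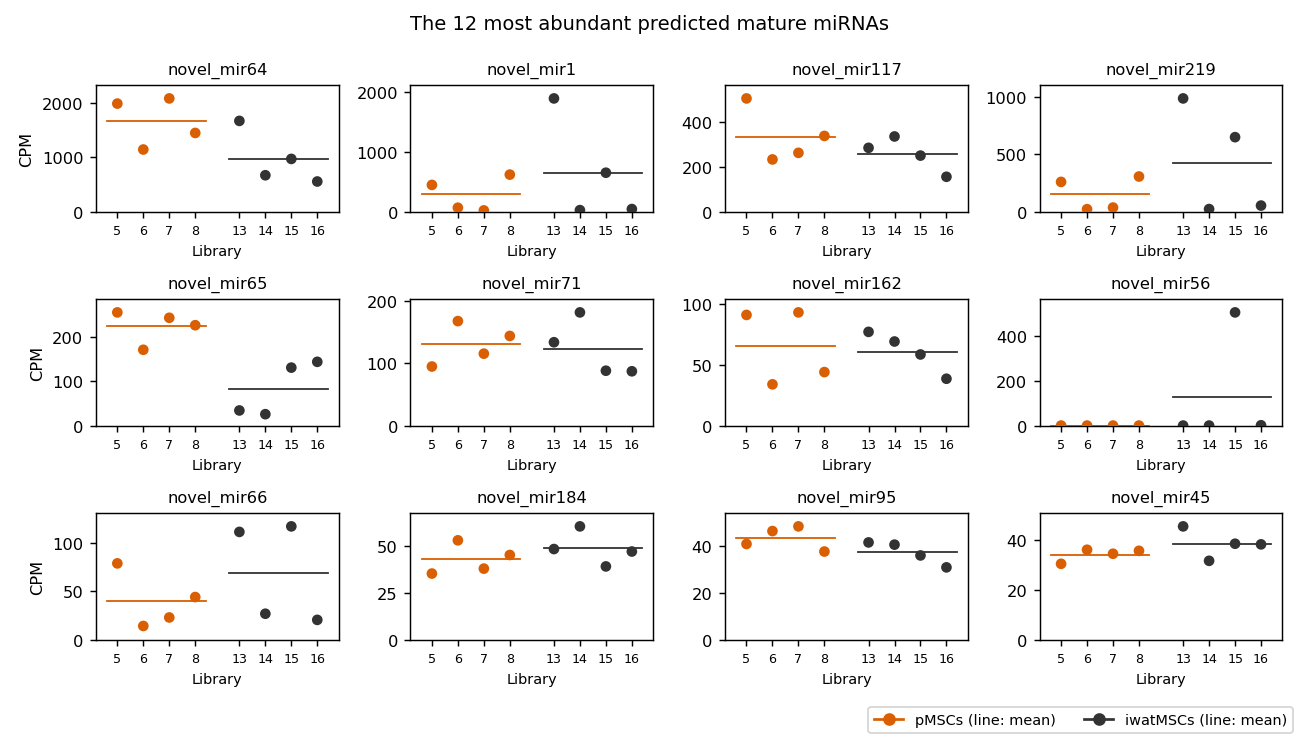
Level in CPM of the 12 predicted miRNAs with the highest mean over the 8 libraries, 1 panel each with its own linear axis from 0, by library (points: pMSCs libraries 5 to 8 at the left, iwatMSCs libraries 13 to 16 at the right; line: mean of 4). novel_mir1, novel_mir219 and novel_mir66 are high in libraries 5, 8, 13 and 15, novel_mir56 rests on library 15 (503.3 CPM), and novel_mir65 does not overlap between the tissues.

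Other members with at least 10 reads on average also rested on 1 library of a tissue. novel_mir33 had 90 reads in pMSCs library 5 and was at 0 in pMSCs libraries 6, 7 and 8, while the 4 iwatMSCs libraries had 17, 11, 184 and 118 reads. novel_mir137 had 172 reads in pMSCs library 8 and was at 0 in the other pMSCs libraries, while the iwatMSCs libraries had 25, 45, 21 and 53 reads. novel_mir234 had 10, 0, 0 and 91 reads in pMSCs, against 73, 24, 56 and 29 reads in iwatMSCs. These members were listed in each iwatMSCs library and patchily in pMSCs. novel_mir20 was at 12, 0, 0 and 0 reads in pMSCs, against 0, 0, 88 and 16 reads in iwatMSCs. Among the members with the fewest reads, novel_mir132 was listed in 1 library with 10 reads (pMSCs library 6) and passed the filter. The filter could exclude no listed member, since the lowest listed value is 10. Only the 33 members at 0 in every library lay outside.

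Some abundant members were listed at 0 in a single library. Among those with a median of at least 100 reads, 2 of 27 (7.41%) were listed at 0 in at least 1 library, against 2 of 333 known miRNAs (0.601%) once known values under 10 were also written as 0. The 2 were novel_mir122, with 279, 69, 0 and 174 reads in pMSCs and 143, 13, 398 and 77 reads in iwatMSCs, and novel_mir98, with 142, 129, 239 and 226 reads in pMSCs and 95, 0, 143 and 157 reads in iwatMSCs (both picked after their values were seen). At a median of 30 to 100 reads the shares were 4 of 23 members (17.4%) and 11 of 100 known miRNAs (11%), and at 10 to 30 reads they were 32 of 41 (78.0%) and 76 of 112 (67.9%). No test of these shares was made, because members and known miRNAs share the same 8 libraries.

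Libraries ranked the predicted miRNAs less alike than they ranked known ones. Over the 208 members listed in any library, the Spearman coefficient of log2(CPM + 1) had a median of 0.713 over the 28 pairs of libraries, with a range of 0.522 to 0.822. Within pMSCs the median was 0.714 (6 pairs), within iwatMSCs 0.776 (6 pairs) and between the tissues 0.683 (16 pairs), so that the within-tissue ranges (0.662 to 0.772 in pMSCs and 0.625 to 0.822 in iwatMSCs) overlapped the between-tissue range of 0.522 to 0.756. Among known miRNAs with values under 10 reads written as 0, the median was 0.934 over 679 miRNAs, and the within-tissue medians of 0.961 in pMSCs and 0.962 in iwatMSCs stood above 0.922 between tissues. Known miRNAs run to far higher levels and the sets were not matched for level, so the gap is not a result at equal level. These coefficients are taken across miRNAs that share a library and its depth, and they describe the libraries without a test.

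**Figure D3:**
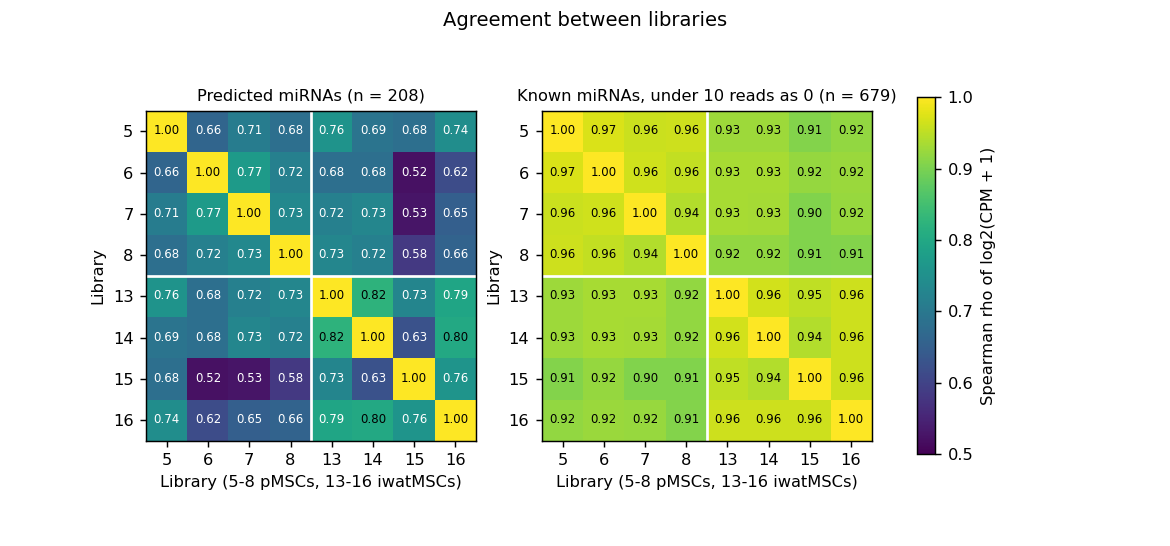
Spearman coefficient of log2(CPM + 1) for each pair of the 8 libraries (5 to 8 pMSCs, 13 to 16 iwatMSCs; white lines part the tissues), for 208 predicted miRNAs at the left and for 679 known miRNAs with values under 10 reads as 0 at the right. The tissue blocks are visible among known miRNAs (medians 0.961 and 0.962 within, 0.922 between) and are weaker among predicted miRNAs (0.714 and 0.776 within, 0.683 between), where library 15 has the lowest coefficients.

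Coefficients were higher among the members that recurred, but these were chosen for being listed in every library, which leaves out every 0. The higher value is therefore not read as closer agreement. A choice by level alone, the 96 members with a mean of at least 10 reads, had a median of 0.732 (range 0.474 to 0.857). For the 53 members listed in all 8 libraries the median coefficient was 0.836 (range 0.745 to 0.910), against 0.945 for the 456 known miRNAs with at least 10 reads in all 8. These sets were not matched for level either. For each pair of libraries, the members listed in both were taken as a share of each library's list, and this share had a median of 75.3% (54.3% to 90.4% over both lists of the 28 pairs). The spread within a tissue was also wider for the predicted miRNAs listed throughout. The median coefficient of variation of those with a mean of 100 to 1000 reads was 35.7% in pMSCs and 29.5% in iwatMSCs (19 members), against 20.5% in pMSCs and 21.4% in iwatMSCs for 162 known miRNAs of that level. At 10 to 100 reads it was 30.8% in pMSCs and 29.7% in iwatMSCs (28 members), against 24.6% in pMSCs and 25.5% in iwatMSCs (122 known miRNAs).

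Between the tissues, 5 of the 208 predicted miRNAs tested passed the threshold of an adjusted p under 0.05 (edgeR's quasi-likelihood test with Benjamini-Hochberg adjustment over all 1241 mature miRNAs tested). novel_mir154 was higher in pMSCs, and novel_mir3, novel_mir226, novel_mir7 and novel_mir134 were lower. The 5 are 2.40% of the members tested, where over all mature miRNAs tested 3.46% were called higher and 2.98% lower, together 6.45%, and among the 1033 known miRNAs 75 (7.26%) were called. Members are less abundant than known miRNAs, and by level the calls were 0 of 112 members under a mean of 10 reads, against 8 of 467 known miRNAs (1.71%), 3 of 67 at 10 to 100 reads (4.48%), against 16 of 225 (7.11%), and 2 of 29 at 100 reads or more (6.90%), against 51 of 341 (15.0%). The known miRNAs kept their values under 10 reads here, while a member with a mean under 10 always includes a listed 0. The classes are therefore not fully alike. An unadjusted p under 0.05 (edgeR) was reached by 33 members (15.9%), against 194 known miRNAs (18.8%). In the lowest class, with no call, it was reached by 19 of 112 members (17.0%), against 50 of 467 known miRNAs (10.7%). All 19 of these members were listed at 0 in every library of 1 tissue. Their share is therefore not read as a count of measured tissue differences. The part of the listed zeros in these shares was not tested. These shares are a description and are not read as a result about the members as a class. Without pMSCs library 7 the same 5 members passed, of 204 tested, where 2.65% of all 1244 miRNAs tested were higher, 2.73% lower and 5.39% either.

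By listed values, novel_mir3 separated the tissues most cleanly. It was listed at 0 in pMSCs libraries 5 to 8 and had 123, 129, 108 and 133 reads in iwatMSCs libraries 13 to 16, or 13.9 ± 1.87 CPM (SD, n = 4). The iwatMSCs libraries varied by little, and no pMSCs library listed it. It met the filter for testing only through iwatMSCs. Its adjusted p was 0.000147 (edgeR, Benjamini-Hochberg), and 0.000580 without pMSCs library 7. Both fits take the listed zeros of pMSCs as counts, so neither value measures a spread in pMSCs. With 9 reads written in place of each 0, just under the lowest value that occurs, the adjusted p was 4.24e-05. That stand-in is arbitrary, since what a 0 stands for is not stated and may be more reads than that. It also gives the 4 pMSCs libraries identical counts, so this adjusted p does not measure their spread either. novel_mir3 passed in all 18 alternative fits.

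novel_mir154 had the opposite pattern at a lower level. It was read 10, 33, 37 and 39 times in pMSCs libraries 5 to 8 (3.26 ± 1.26 CPM, SD, n = 4) and was listed at 0 in iwatMSCs libraries 13 to 16. The lowest pMSCs library stood at the lowest listed value. The adjusted p was 0.00261, 0.0110 without pMSCs library 7 and 0.0159 with 9 reads in place of each 0 (edgeR, Benjamini-Hochberg). It met the filter for testing only through pMSCs. The iwatMSCs libraries have identical counts both as listed zeros and with the stand-in, so none of these values measures their spread. novel_mir154 passed in 15 of the 18 alternative fits, and failed in the 3 fits of limma on the TPM-like values of all 8 libraries.

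The other 3 were listed in all 8 libraries. novel_mir7 had 63, 65, 86 and 80 reads in pMSCs libraries 5 to 8, against 346, 174, 212 and 322 reads in iwatMSCs libraries 13 to 16. Its level was 8.42 ± 1.34 CPM in pMSCs and 29.4 ± 8.67 CPM in iwatMSCs (SD, n = 4 each), with a log2 fold change of -1.80 (SE 0.27) and an adjusted p of 0.00287 (edgeR, Benjamini-Hochberg). Every iwatMSCs library lay above every pMSCs library. Without pMSCs library 7 the log2 fold change was -1.92 (adjusted p = 0.0100, edgeR, Benjamini-Hochberg), and the member passed in 15 of 18 alternative fits, failing in the same 3.

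novel_mir226 had 39, 108, 69 and 130 reads in pMSCs, against 237, 436, 280 and 271 reads in iwatMSCs. The level was 9.47 ± 3.46 CPM in pMSCs and 34.8 ± 12.6 CPM in iwatMSCs (SD, n = 4 each), and the log2 fold change was -1.87 (SE 0.35, adjusted p = 0.0110, edgeR, Benjamini-Hochberg). iwatMSCs library 14 was the highest, and the tissues did not overlap. Without pMSCs library 7 the log2 fold change was -1.84 (adjusted p = 0.0413, edgeR, Benjamini-Hochberg). It passed in 14 of 18 alternative fits, and failed limma on the TPM-like values with all 8 libraries and also without library 7 (adjusted p = 0.0936, limma).

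novel_mir134 had 25, 25, 24 and 28 reads in pMSCs, against 64, 68, 130 and 56 reads in iwatMSCs. Its level was 2.94 ± 0.465 CPM in pMSCs and 8.85 ± 3.42 CPM in iwatMSCs (SD, n = 4 each), with a log2 fold change of -1.59 (SE 0.32) and an adjusted p of 0.0161 (edgeR, Benjamini-Hochberg). The pMSCs libraries were nearly equal and the iwatMSCs libraries spread upward from them without overlap. Without pMSCs library 7 the log2 fold change was -1.57 (adjusted p = 0.0380, edgeR, Benjamini-Hochberg). It passed in 14 of 18 alternative fits, and failed limma on the TPM-like values with all 8 libraries and also without library 7 (adjusted p = 0.0642, limma).

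**Figure D4:**
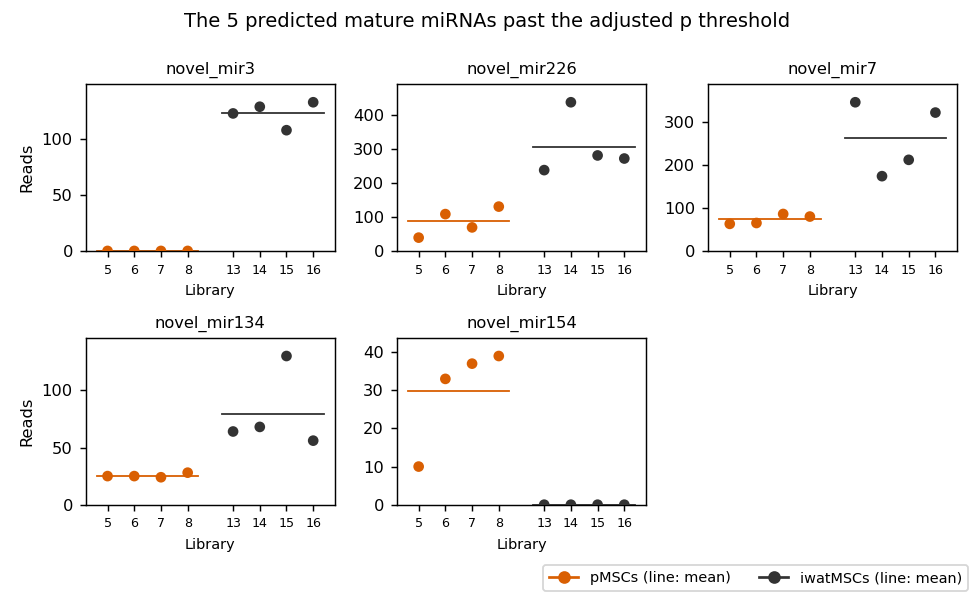
Reads per library of the 5 predicted miRNAs with an adjusted p under 0.05 (points: pMSCs libraries 5 to 8 at the left, iwatMSCs libraries 13 to 16 at the right; line: mean of 4; linear axes from 0). The listed values of the tissues do not overlap in any panel, novel_mir3 is listed at 0 in pMSCs and between 108 and 133 reads in iwatMSCs, and novel_mir154 is listed at 0 in iwatMSCs.

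Across all 208 members the tissue differences were balanced. The median log2 fold change was 0.06, with 106 members above 0 and 102 below, where the median over all 1241 mature miRNAs was -0.07. The 208 include the 43 and 39 members listed at 0 throughout a tissue, whose fitted values have a direction but no measured size. For the 53 members listed in all 8 libraries it was -0.09, with 25 above 0 and 28 below. The libraries of the tissues did not overlap in 7 members that were higher in pMSCs and 7 that were lower, of 208, where 6.93% of all mature miRNAs tested were higher and 6.77% lower without overlap. Among the 53 members listed in all 8 libraries, 2 were higher and 5 lower without overlap. Of 456 known miRNAs with at least 10 reads in all 8, 51 were higher and 35 lower. The remaining members hold a listed 0, so their lack of overlap depends on what a 0 stands for. The 7 higher ones were novel_mir32, novel_mir65, novel_mir138, novel_mir154, novel_mir194, novel_mir225 and novel_mir230. The 7 lower ones were novel_mir3, novel_mir7, novel_mir50, novel_mir100, novel_mir134, novel_mir204 and novel_mir226. Those without a call included novel_mir50, which had 91, 122, 103 and 102 reads in pMSCs, against 232, 154, 139 and 143 reads in iwatMSCs, with a log2 fold change of -0.65 (adjusted p = 0.171, edgeR, Benjamini-Hochberg), and which was picked after its values were seen.

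**Figure D5:**
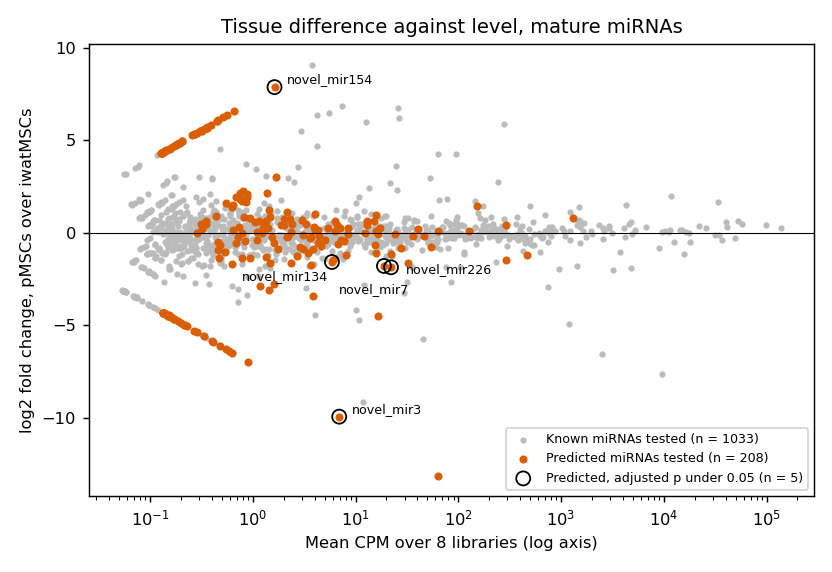
Fitted log2 fold change (pMSCs over iwatMSCs, edgeR) against the mean CPM over 8 libraries (log axis) for 208 predicted miRNAs (orange) and 1033 known miRNAs (grey) tested, with a ring around the 5 predicted miRNAs past the threshold. Members listed at 0 in a whole tissue (the slanting rows at the left, novel_mir154, novel_mir3 and the lowest point, novel_mir56) have a fitted size that depends on the prior count and is no measured fold, and the median of all 208 is 0.06.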

How the data were processed

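Small RNA of 4 pMSCs and 4 iwatMSCs libraries was sequenced on a BGISEQ instrument after adapter ligation and addition of unique molecular identifiers (UMIs). The deposited count of each small RNA per library was made by the authors' provider, which identified, classified and predicted the small RNAs. Bowtie2 is named in the submitters' processing notes, its version, the genome build, the miRBase release and the prediction tool being not given in the sources used here, and whether counts are of reads or of UMIs is not stated. The score that the authors call TPM is deposited as a whole number with 0.001 for 0, never exceeds the count and sums to a different total in each library, so it entered alternatives only. All 16 value columns were used.

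A mature miRNA was tested if its mean reached 1 read in either tissue. Every listed member meets this, so the alternative without a filter tested the same members. The test was the two-sided quasi-likelihood F test of edgeR 4.0.16 (R 4.3.3) on all 8 libraries, with TMM factors and a term for tissue, with Benjamini-Hochberg adjustment over all miRNAs tested and a threshold of 0.05. Standard errors are approximate, since each was derived from the fold change and its F statistic. Exact permutation tests were run on the group means of log2(CPM + 1) with scipy 1.17.1 in Python 3.11.15 (pandas 2.3.3, numpy 2.4.6). Plots were made in matplotlib 3.10.9. Alternatives were limma 3.58.1 on log2(score + 1, 0.5 or 5), DESeq2 1.42.0, DESeq2 size factors, other filters (a mean of at least 10 reads, or none), all small RNA reads as the library size, and each library left out. Chosen after seeing the data were 9 reads in place of 0, members listed in all 8 libraries, limma without library 7 and known miRNAs with values under 10 as 0. On simulated data with 1241 rows, edgeR recovered 35 of 100 rows changed 4-fold and 8 of 100 changed 2-fold, and 1 of 44 calls was false. The simulated counts had no lowest listed value of 10, unlike the predicted miRNAs. These rates are therefore not rates for the predicted miRNAs.

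Named are the 12 members with the highest mean CPM, members past the threshold, members in all 4 libraries of 1 tissue and none of the other, the 5 members (mean of at least 10 reads) with the largest ratio of a library to the median of its tissue's others, and the listed member with the lowest reads and mean CPM. Members, lists and rules were chosen with earlier results of these data known.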

Additional observations from a re-analysis of the deposited data

Results flagged for a closer look

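In 8 of 48 groups of 4 libraries examined, 1 library stood far from the other 3, by a gap that chance gives in about 1 of 20 groups. The TPM-like values of the predicted miRNAs in pMSCs library 7 came to 0.657% of their reads. Among single members, novel_mir56 stood out in iwatMSCs library 15 (503.3 CPM) and novel_mir226 in iwatMSCs library 14 (53.6 CPM). In pMSCs, novel_mir137 (17.8 CPM) and novel_mir234 (9.43 CPM) stood out in library 8, novel_mir33 (13.0 CPM) and novel_mir20 (1.73 CPM) in library 5, and novel_mir132 (1.02 CPM) in library 6. For novel_mir132, novel_mir137, novel_mir20 and novel_mir33 the other 3 pMSCs libraries were listed at 0. novel_mir56, novel_mir137, novel_mir234 and novel_mir33 had been named for the same high library, so their place here follows from that choice. novel_mir20 had been named for iwatMSCs library 15 (88 reads), not for the pMSCs library flagged here.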

How the results depend on the processing

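The count of 5 members past the threshold lay between 5 and 8 when 1 library was left out, with 8 without pMSCs library 5 and 8 without iwatMSCs library 13, and the cause was not tested. Of these, between 1 and 3 were higher in pMSCs (2 without pMSCs library 5, 3 without iwatMSCs library 13, 2 without iwatMSCs library 14) and between 4 and 6 lower. With the DESeq2 Wald test 2 were higher, and with 9 reads in place of 0 also 2. With limma on the TPM-like values of all 8 libraries, 1 member passed (0 higher, 1 lower) at each of the 3 pseudocounts, and without library 7, whose TPM-like values are collapsed, 3 passed, 2 of them lower. At an added 1, the log2 fold changes with all 8 libraries were -3.01 for novel_mir7, -3.04 for novel_mir226 and -2.42 for novel_mir134, none past the threshold, and novel_mir154, listed at 0 in iwatMSCs, did not pass either. novel_mir226 and novel_mir134 also missed it without library 7 (adjusted p = 0.0936 and 0.0642, limma). Counting members listed in all 8 libraries left 3 calls, 0 of them higher. The adjusted p with 1 library left out stayed between 0.000355 and 0.00151 for novel_mir3, and reached 0.0488 for novel_mir134. No direction was reversed. The mean share of mature reads was 0.132% in pMSCs and 0.144% in iwatMSCs when taken over all small RNA types, 4.91% in pMSCs (17.1% in library 7) and 0.851% in iwatMSCs from the TPM-like values, and 0.177% in pMSCs without novel_mir64. Members listed in all 4 libraries numbered 61 in pMSCs and 69 in iwatMSCs. Members at 0 in all pMSCs libraries and listed in iwatMSCs numbered between 20 (without iwatMSCs library 15) and 47 with 1 library left out, and those at 0 in all iwatMSCs libraries and listed in pMSCs between 29 and 55. The median agreement of 0.713 became 0.732 for members with a mean of at least 10 reads. It was 0.836 for members in all 8 libraries, a choice that leaves out every 0. For known miRNAs it was 0.888, and 0.934 with values under 10 as 0. No paired analysis was possible because the libraries of the 2 tissues share no replicate number and the labels do not say which came from the same mice, although both tissues were taken from the same mice. Values of 1 to 9 reads do not occur for predicted miRNAs, and what a 0 stands for is not stated, which limits every statement on presence.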

Other observations

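The piRNAs predicted by the same pipeline, picked here after their values were seen, held members that varied widely within each tissue. novel_pir1266 was read 11004, 4128, 2699 and 43703 times in pMSCs libraries 5 to 8, against 30910, 934, 17214 and 996 times in iwatMSCs libraries 13 to 16, and was thus highest in libraries 5 and 8 of pMSCs and 13 and 15 of iwatMSCs, as novel_mir1 was. novel_pir446 was read 5227, 2404, 5122 and 15678 times in pMSCs, against 15782, 2868, 9730 and 2385 times in iwatMSCs, with libraries 5 and 7 of pMSCs at nearly the same level. Predicted piRNAs listed above 0 numbered 637, 515, 495 and 648 in pMSCs libraries 5 to 8, and 684, 594, 826 and 724 in iwatMSCs libraries 13 to 16. Within pMSCs the 2 libraries with more of them were 5 and 8. In iwatMSCs the most were listed in library 15, which also listed the most predicted miRNAs (130).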
